A study of Mus musculus with 14 samples.

Results

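Mouse embryonic stem (ES) cells that had been through retinoic acid (RA) and then grown for 10 passages without it were compared with the same subline that was not given RA. The comparison takes 4 of the 14 arrays of the series, 2 of passage 10 cells and 2 of untreated cells in standard culture (standard day 3), chosen by their titles. All 4 carried RNA of the MC1-ZE3 subline of MC1 ES cells, which are of strain 129/Sv and labelled male, grown as a monolayer on gelatin in ES cell medium and collected on day 3. Passage 10 cells had spent 7 days in RA before the passages, at 50 nM as far as the design text gives it. Past RA and the 10 passages after it come together in this group, so their effects cannot be told apart. The same extraction text, which speaks of colonies picked and pooled, stands with both groups, so the labels do not settle whether these cells came from picked colonies, nor whether passage 10 cells descend from 1 colony or from many. The labels do not state whether replicate arrays stand for independent cultures, and the p-values thus reflect a spread between arrays that may be technical only.

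The other groups, of 2 arrays each, were MC1-ZE3 cells of another experiment on day 3 without treatment (control day 3), MC1-ZE3 cells given RA at 50 nM for 48 h (RA 48 h) or the phosphoinositide 3-kinase (PI3K) inhibitor LY294002 for 48 h (LY294002 48 h), and colonies picked by hand in 50 nM RA on day 4 from MC1-ZE16 and on day 7 from MC1 (day 4 and day 7 colonies). Each array carried its sample in Cy3 and a common reference in Cy5, a pool of RNA from cultured cell lines mixed with ES cell RNA. Levels are given as log2 of sample over reference, so a level of 0 equals the reference, and a change of 1 on this scale is 2-fold.

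ES cells are held undifferentiated by the cytokine LIF, by serum factors and by their own transcription factors. RA enters the cell, binds nuclear receptors that sit on DNA at its target genes, and switches on genes of differentiation while genes of the undifferentiated state fall. The PI3K pathway, which LY294002 blocks, carries growth factor signals and helps ES cells to renew themselves. After RA is withdrawn its receptors lose their ligand. The comparison asks which differences from unexposed cells were present long after that.

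The array holds 42006 probes of 60 bases, each given only an identifier and a sequence. Of 499 symbols in 16 lists on pluripotency, RA response, lineages, imprinting, chromatin and other cell types, 0 appear among the probe names, so the lists and the markers of ES cells and of other cell types could not be read, and the labelled cell type was not checked. Results are therefore given by probe. The 2 probes that rose most and the 2 that fell most at passage 10 are shown because the largest changes rest on them:
Z00026289-1: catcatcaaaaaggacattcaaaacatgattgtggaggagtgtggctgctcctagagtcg
Z00070458-1: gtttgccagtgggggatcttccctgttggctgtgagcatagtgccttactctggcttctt
Z00078103-1: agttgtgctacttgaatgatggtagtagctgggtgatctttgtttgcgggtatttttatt
Z00014876-1: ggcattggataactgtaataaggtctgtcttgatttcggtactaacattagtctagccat

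A further 4 probes, singled out after their values were seen, are shown because they are 2 pairs that read overlapping stretches, so that 1 transcript is measured by 2 spots. Capitals mark the run that both probes of a pair share, 33 bases in the first pair and 19 in the second:
Z00000336-1: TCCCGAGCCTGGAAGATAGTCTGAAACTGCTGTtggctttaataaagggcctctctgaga
Z00055328-1: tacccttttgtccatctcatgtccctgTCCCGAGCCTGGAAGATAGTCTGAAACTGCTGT
Z00053992-1: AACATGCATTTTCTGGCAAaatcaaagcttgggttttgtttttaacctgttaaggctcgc
Z00075380-1: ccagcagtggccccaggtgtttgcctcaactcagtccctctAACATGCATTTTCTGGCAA

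Few probes moved far between passage 10 and standard day 3. Of 23960 probes tested, 1606 (6.7%) passed an adjusted p of 0.05 (limma, Benjamini-Hochberg adjustment over all tested probes). Of these 823 were higher (3.43% of all tested) and 783 lower (3.27%) at passage 10. At least 2-fold changes that also passed numbered 30 (0.125%), 15 higher (0.0626%) and 15 lower (0.0626%). Most of the 1606 were small. Their median absolute change was 0.34 on the log2 scale, the smallest was 0.20, and 278 reached 0.5. Over all tested probes the median absolute change was 0.094, 21322 (89.0%) lay within 0.25 of no change, and the median SE was 0.077. Just short of 2-fold lay, among falls, Z00060065-1 at -0.98 and, among rises, Z00010489-1 at 0.97.

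The number past the threshold varied widely with the arrays in the fit, and most of the 30 stayed among them. Without 1 of the 4 arrays, 399 probes passed without standard day 3 replicate 2, 335 without passage 10 replicate 1, 508 without passage 10 replicate 2 and 1383 without standard day 3 replicate 1, each time with 29 of the 30. With only 1 slide left, 182 passed on slide 3 and 166 on slide 2, of which 27 and 27 were among the 30. With each array's log ratios only centred on the median, 38 passed, 28 of them among the 30. In every alternative that measured them the 30 kept their direction.

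For scale, the same probes were counted in other comparisons. RA 48 h against control day 3, which lay on 1 slide, gave 955 probes past the threshold and 2-fold (3.99%), 682 higher (2.85%) and 273 lower (1.14%). Against standard day 3 the number was 1534 (6.4%) for control day 3, 1475 (6.16%) for LY294002 48 h, 1970 (8.22%) for day 4 colonies, 2411 (10.1%) for day 7 colonies and 2694 (11.2%) for RA 48 h. Those 5 comparisons share the standard day 3 arrays and set arrays of different slides against each other. Control day 3 and standard day 3 are both untreated MC1-ZE3 cells by their labels, and 1534 probes separate them. Passage 10 differed at 2-fold in 1596 probes (6.66%) from LY294002 48 h, in 2239 (9.34%) from control day 3, in 2335 (9.75%) from day 4 colonies, in 2799 (11.7%) from day 7 colonies and in 3293 (13.7%) from RA 48 h, again across slides. Slide and scan day cannot be told apart from group in these counts.

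**Figure D1:**
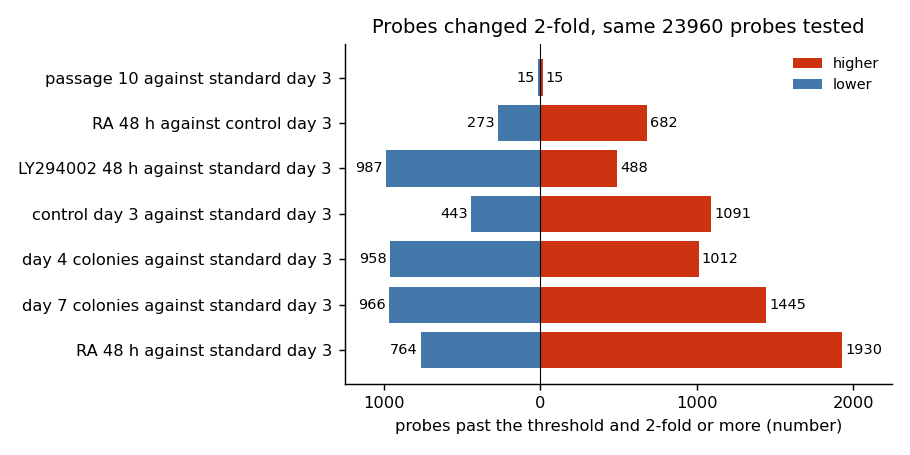
Number of probes (horizontal axis) past an adjusted p of 0.05 and changed at least 2-fold, higher to the right and lower to the left, for 7 comparisons over the same 23960 probes. Passage 10 against standard day 3 has 15 in each direction, and RA 48 h against standard day 3 has 1930 higher and 764 lower.

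Each slide held 1 array of each group, and the difference measured on slide 2 had a correlation of 0.578 with that on slide 3 over 23960 probes, which share the reference, the array design and the normalization. All 1606 probes past the threshold, and so all 30, had the same sign on both slides, which the test itself favours. When the slide 3 difference was tested against the slide 2 difference, 1 of 23948 probes passed (limma, adjusted over all) and 940 had an unadjusted p under 0.05. That test has 1 array of each group on a slide and says little about whether the slides agree. Across all tested probes, the levels of the 2 standard day 3 arrays correlated at 0.987 and those of the 2 passage 10 arrays at 0.991. Arrays of different groups correlated at 0.974 to 0.982.

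**Figure D2:**
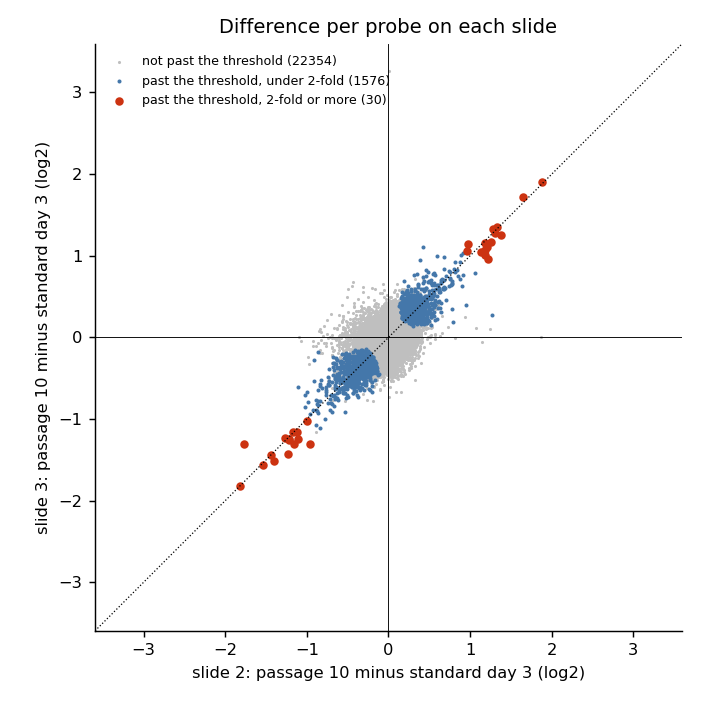
Each point is 1 of the tested probes, with the difference between passage 10 and standard day 3 (log2) on slide 2 on the horizontal axis and on slide 3 on the vertical axis. The 30 probes in red lie near the dotted line of equal difference, at 1.88 and 1.90 for the largest rise and at -1.82 on both slides for the largest fall.

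Standard day 3 always lay at position 3 of its slide and passage 10 at position 4, so position and group cannot be told apart within this pair. Replicate pairs of RA 48 h, LY294002 48 h and day 7 colonies lay at the same positions. Their mean difference between position 4 and position 3 had a correlation of 0.013 with the passage 10 change over all tested probes, and shared its sign in 778 of the 1606 probes and 16 of the 30. The largest such difference among the 30 was 0.44, at Z00016634-1. With a term for position the number past the threshold was 657, 239 higher and 418 lower. Of the 30, 29 passed and 24 stayed at least 2-fold.

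Z00026289-1 had the largest rise. Its level was -3.88 and -3.97 on the standard day 3 arrays and -2.00 and -2.07 on the passage 10 arrays. Both passage 10 values stood far above both others, a change of 1.89 (SE 0.08, 3.71-fold, adjusted p = 7.03e-06, limma). The level was -3.81 and -3.71 in control day 3, -3.93 and -3.84 after RA for 48 h, -5.32 and -5.17 after LY294002, -4.84 and -4.76 in day 4 colonies and -4.43 and -4.21 in day 7 colonies. Passage 10 was thus the highest of the 7 groups, and LY294002 48 h, where the probe fell by 1.48 against control day 3, the lowest. RA at 48 h changed it by -0.12 against control day 3 (adjusted p = 0.26), a difference that did not pass.

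Z00070458-1 read a transcript that was faint beside the reference in every other group. It stood at -8.87 and -8.88 in standard day 3 and at -7.23 and -7.17 in passage 10, a rise of 1.68 (SE 0.10, 3.21-fold, adjusted p = 1.43e-05). The remaining 10 arrays lay between -9.15 and -8.72, so only the passage 10 arrays left that range. Of the 15 risen probes, 8 had both passage 10 arrays above all 12 other arrays of the series. These were Z00026289-1, Z00070458-1, Z00025893-1, Z00075103-1, Z00024982-1, Z00054591-1, Z00057363-1 and Z00076700-1. The 15 had been chosen for standing above standard day 3, which favours such a place. The same count over all tested probes was not made.

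Z00078103-1 fell most. Its level was 0.17 and 0.32 in standard day 3 and -1.65 and -1.50 in passage 10, a change of -1.82 (SE 0.12, 3.53-fold, adjusted p = 2.41e-05). Control day 3 lay at 1.05 and 1.18, RA 48 h at 1.69 and 1.67, and LY294002 48 h at 1.27 and 1.58. Day 4 colonies were lower still, at -2.90 and -2.76, and day 7 colonies stood at -0.71 and -1.03. The probe was thus low in passage 10 and in both kinds of picked colonies, and high in the cultures of the 48 h experiment.

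Z00014876-1 stood at 0.34 and 0.36 in standard day 3 and at -1.20 and -1.21 in passage 10, a change of -1.55 (SE 0.10, 2.94-fold, adjusted p = 2.63e-05). LY294002 48 h was lower than passage 10, at -3.23 and -3.04, and so were day 7 colonies, at -2.48 and -2.83. Control day 3 lay at 0.62 and 0.61 and RA 48 h at -0.29 and -0.21. Day 4 colonies lay at -0.78 on both arrays. In this probe every treated or picked group was below both untreated groups.

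**Figure D3:**
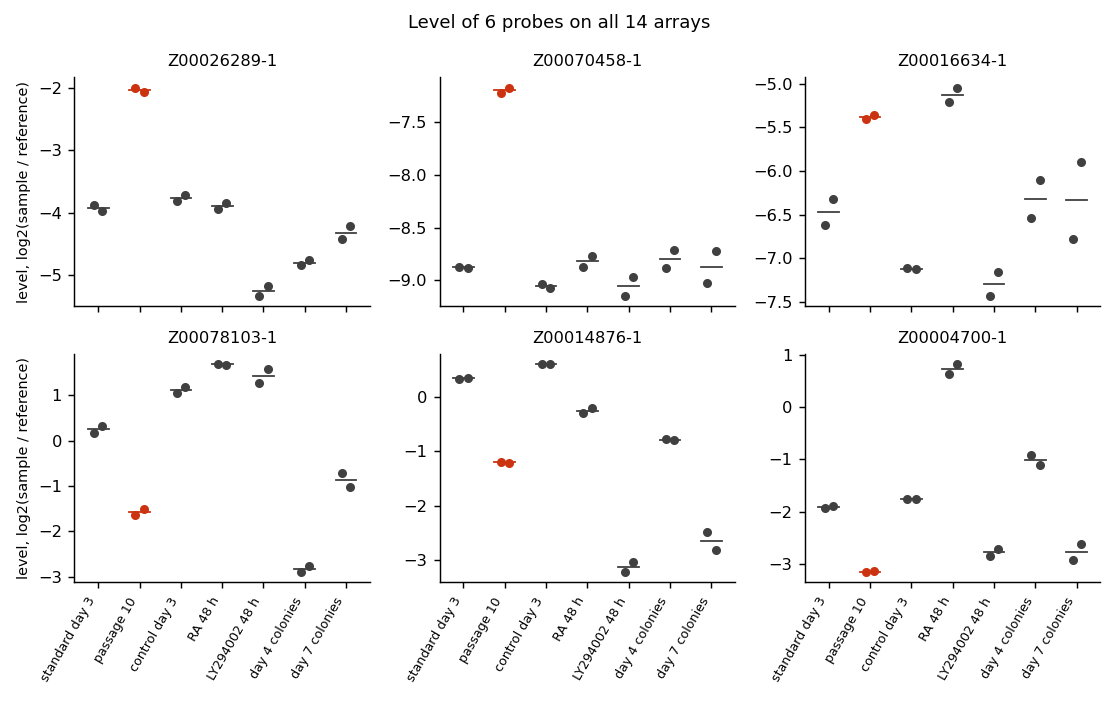
Level of 6 probes as log2 of sample over reference (vertical axes, which differ between panels) on the 14 arrays. Points are single arrays and bars the mean of a group's 2 arrays, with passage 10 in red, which is the highest group for Z00026289-1 and Z00070458-1 and the lowest for Z00004700-1.

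The overlapping pairs gave the same answer from both of their spots. Z00000336-1 stood at 0.04 on both standard day 3 arrays and at -1.18 and -1.21 on the passage 10 arrays, a change of -1.23 (SE 0.07, adjusted p = 1.02e-05). Its partner Z00055328-1 stood at 0.04 and 0.02 against -1.07 and -1.14, a change of -1.14 (SE 0.06, adjusted p = 1.01e-05). In the second pair Z00053992-1 went from 0.78 and 0.83 to -0.49 and -0.39, and Z00075380-1 from 0.72 on both arrays to -0.71 and -0.73. These are changes of -1.25 (SE 0.07) and -1.44 (SE 0.08). Over the whole array 2004 pairs of probes share a run of at least 18 bases, and both probes were tested in 1112. Across those pairs the passage 10 changes of partners had a correlation of 0.876. In 123 pairs at least 1 probe passed, and in 122 of these both probes moved the same way. Both passed in 72 pairs, 71 of them in the same direction.

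Risen and fallen probes started from different levels. The 15 that rose had a median standard day 3 level of -4.63, from -8.88 to 0.75, and 2 of them lay above the reference. The 15 that fell had a median of 0.35, from -1.91 to 0.95, and 12 lay above the reference. The median over all tested probes was 0.016. A rise therefore mostly concerned transcripts more abundant in the reference pool than in these ES cells, and a fall mostly transcripts near or above the reference. Probes were also sorted by their level on control day 3 arrays, which the comparison did not use. Only probes whose Cy5 spot was well above background on all 14 arrays were sorted. Of 2075 such probes at least 2-fold above the reference in control day 3, 78 were higher (3.76%, against 3.43% of all tested) at passage 10. A further 210 were lower (10.1%, against 3.27%), and at 2-fold 0 were higher and 7 lower. Of 1060 at least 4-fold below it, 69 were higher (6.51%) and 61 lower (5.75%), with 12 and 0 at 2-fold. These 12 and 7 are members of the 15 risen and 15 fallen probes themselves, so they are no separate support. Whether sample spots so far below the reference could register a 2-fold fall was not tested. In 14 of the 15 risen probes, and in all 15 fallen ones, the sample spot was well above background on all 4 arrays. The same held for 22858 of all 23960 tested probes. In Z00031231-1 the sample spot was not well above background on either standard day 3 array. Its Cy3 signal was 2.11-fold higher at passage 10, and its log ratio rose by 1.09 (SE 0.12, adjusted p = 0.000838, limma). The size of this rise is uncertain, since it rests on dim standard day 3 spots.

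Probes that fell at passage 10 were mostly those that also fell under LY294002. LY294002 48 h was set against control day 3, so that no array is shared with the passage 10 comparison, a choice made after these values were seen. Of the 15 fallen probes 14 were also lower after LY294002, where 32.9% of all tested probes were, and 1, Z00078103-1, was higher by 0.31. The median change of the 15 under LY294002 was -2.28, and 11 were among the 1674 probes (6.99%) that LY294002 lowered at least 2-fold. Both overlapping pairs are among these 11, so the counts of fallen probes exceed the number of transcripts read. Z00023804-1 showed the deepest fall there. Its level was 3.13 and 3.23 in control day 3 and -1.39 and -1.55 after LY294002, and it went from 0.57 and 0.92 in standard day 3 to -0.39 on both arrays in passage 10. The 15 risen probes did not follow LY294002, with 2 higher (Z00054591-1 by 1.17 and Z00036536-1 by 2.08, where 30.1% of all tested probes were higher) and 5 lower.

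Over all tested probes, falls and rises both went with LY294002, unlike the 15 risen probes. Of the 1674 probes lowered at least 2-fold by LY294002, 254 were lower at passage 10 (15.2%) and 40 higher (2.39%), and their median change was -0.10. Of the 435 (1.82%) that LY294002 raised at least 2-fold, 81 were higher (18.6%) and 11 lower (2.53%), with a median of 0.13. Of all tested probes 3.27% were lower and 3.43% higher, with a median of 0.006. Leaving out 1 of the 4 arrays, the median of the lowered probes was -0.089 (without standard day 3 replicate 2) to -0.115 (without standard day 3 replicate 1). The median of all tested probes was 0.016 and -0.0035 in the same fits. That of the raised probes was 0.11 (without passage 10 replicate 2) to 0.14 (without standard day 3 replicate 1). On slide 2 and slide 3 alone the medians were -0.085 and -0.12 for the lowered probes, and 0.12 and 0.14 for the raised ones. Across all 23960 probes the change at passage 10 had a correlation of 0.319 with that under LY294002, and 0.495 among the 1606 past the threshold. For RA at 48 h these values were -0.027 and -0.14, for day 4 colonies 0.11 and 0.083, and for day 7 colonies 0.11 and 0.13. The probes share the arrays of each group, and differences between these correlations were not tested. Over the alternative settings the correlation with LY294002 ranged from 0.251 to 0.323. LY294002 48 h and control day 3 lay on different slides and positions, whose part in this likeness was not tested.

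Probes that RA had moved at 48 h were followed at passage 10, where past RA and the passages after it cannot be told apart. RA raised 682 probes at least 2-fold, by a median of 1.31. At passage 10, 33 of these were higher (4.84%, against 3.43% of all tested) and 94 lower (13.8%, against 3.27%). A change below 0 was seen in 59.1% of the 682, against 48.3% of all tested probes. The median of the 682 was -0.054, and -0.046 and -0.072 on slides 2 and 3. Leaving out 1 of the 4 arrays, their median was -0.031 (without standard day 3 replicate 2) to -0.075 (without standard day 3 replicate 1). The median of all tested probes was 0.016 and -0.0035 in the same fits. Among the 94 the median change at passage 10 was -0.46, and among the 33 it was 0.43. The share lower was 13.6% for probes raised by 1 to 1.5 at 48 h, 18.3% for 1.5 to 2 and 8.49% for more than 2. RA lowered 273 probes at least 2-fold. Of these 25 were higher (9.16%) and 20 lower (7.33%), with a median of 0.015. Without the 2-fold limit the 6233 probes raised by RA had a median of 0.008 at passage 10. Of the 682, 123 had also been lowered at least 2-fold by LY294002. Of those 123, 1 was higher and 21 lower (17.1%), with a median of -0.19. Of the other 559, 32 were higher (5.72%) and 73 lower (13.1%), with a median of -0.028.

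Of the 15 risen probes 9 were higher and 1 lower after RA for 48 h than in control day 3, and of the 15 fallen probes 9 were higher and 3 lower. Among all tested probes 26% were higher and 20.5% lower. Of the 30 probes, 7 had been moved at least 2-fold by RA, all upwards. Among all tested probes RA moved 3.99% at least 2-fold, 2.85% upwards and 1.14% downwards. The 2 that were higher at passage 10 too were Z00036649-1 and Z00016634-1. Z00036649-1 stood at -4.85 on both control day 3 arrays and at -3.36 and -3.27 after RA. It stood at -4.79 and -4.88 in standard day 3 and at -3.51 and -3.55 in passage 10, a change of 1.30 (SE 0.11, adjusted p = 0.000117). Z00016634-1 rose by 2.00 at 48 h, and went from -6.62 and -6.32 to -5.40 and -5.36 at passage 10, a change of 1.09 (SE 0.23, adjusted p = 0.0227). It was the least certain of the 30 and did not pass with a term for position (0.65, adjusted p = 0.152).

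The other 5 went the opposite way. Z00004700-1 stood at -1.76 and -1.75 in control day 3 and at 0.65 and 0.83 after RA, a rise of 2.49 (adjusted p = 4e-08). At passage 10 it was -3.16 and -3.14, below the -1.94 and -1.89 of standard day 3, a change of -1.24 (SE 0.11, adjusted p = 0.000138). Passage 10 was the lowest of the 7 groups. Z00059649-1, Z00024159-1, Z00053992-1 and Z00075380-1, which RA had raised by 1.07, 1.06, 1.38 and 1.62, were lower at passage 10 by 1.01 to 1.44 on the log2 scale. Z00053992-1 and Z00075380-1 are an overlapping pair, so the 5 probes read fewer than 5 transcripts.

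**Figure D4:**
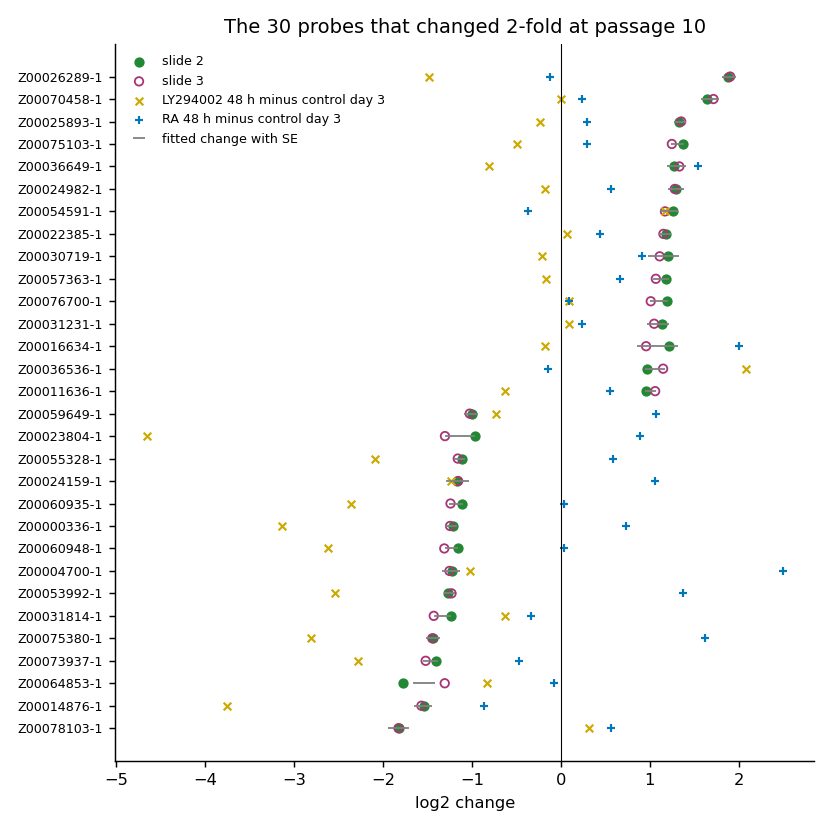
Log2 change (horizontal axis) of the 30 probes at passage 10 against standard day 3 on slide 2 and on slide 3, with the fitted change's SE as a grey line, beside their change at RA 48 h and at LY294002 48 h, both against control day 3. Among the 15 fallen probes the LY294002 crosses lie left of 0 in 14, while the RA marks lie on both sides.

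**Figure D5:**
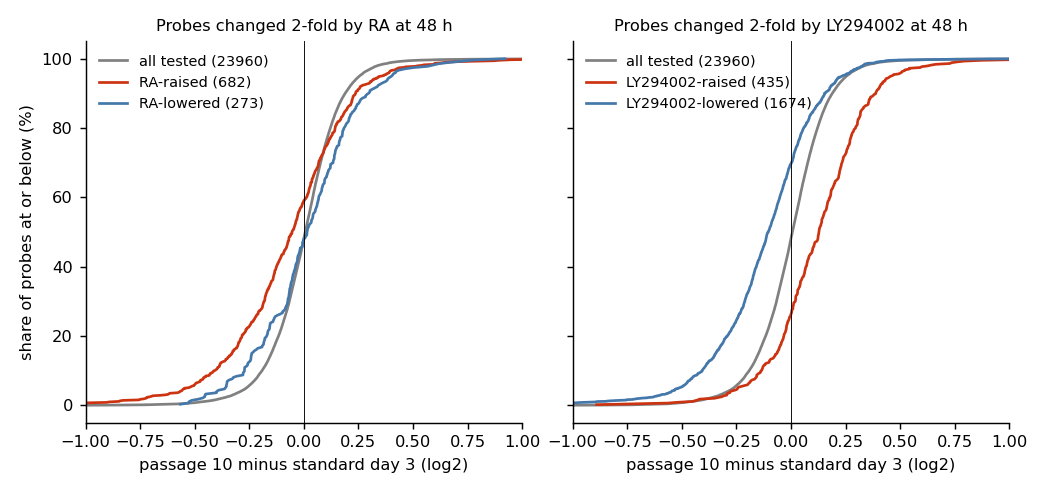
Cumulative share of probes (vertical axis, percent) by their change at passage 10 against standard day 3 (horizontal axis, log2, drawn from -1 to 1), for probes changed at least 2-fold at 48 h by RA (left) or LY294002 (right) against control day 3, beside all tested probes. Medians are -0.054 and 0.015 for RA-raised and RA-lowered probes, and 0.13 and -0.10 for LY294002-raised and LY294002-lowered ones.

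Picked colonies in RA were the source of the day 4 and day 7 groups. Of 1084 probes (4.52%) at least 2-fold lower in day 7 colonies than in control day 3, 127 were lower at passage 10 (11.7%) and 76 higher (7.01%), with a median of -0.038. Of 1767 (7.37%) lower in day 4 colonies, 151 were lower (8.55%) and 118 higher (6.68%). Among 945 (3.94%) raised in day 7 colonies 68 were lower (7.20%) and 55 higher (5.82%). Among 1073 (4.48%) raised in day 4 colonies 75 were lower (6.99%) and 52 higher (4.85%). Of all tested probes 3.27% were lower and 3.43% higher, so each of these colony sets had larger shares in both directions. Of the 15 fallen probes 11 were lower in day 7 colonies than in control day 3 (31.8% of all tested were) and 9 in day 4 colonies (35.9%). Of the 15 risen probes 9 were higher in day 7 colonies (30.2%) and 8 in day 4 colonies (33.6%). In the opposite direction, 3 risen probes were lower in day 7 colonies and 4 in day 4 colonies. Among the fallen probes 2 were higher in day 7 colonies and 2 in day 4 colonies. Day 4 colonies came from another subline, MC1-ZE16, and day 7 colonies from the parental MC1.

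A few fallen probes dropped far in day 4 colonies. Z00064853-1 stood at 1.30 and 1.35 in control day 3 and at -3.79 and -3.65 in day 4 colonies, a change of -5.05 (adjusted p = 5.41e-10). It went from 0.69 and 0.35 in standard day 3 to -1.08 and -0.95 in passage 10, a change of -1.54 (SE 0.13, adjusted p = 0.000111). Z00031814-1 fell by 3.40 in day 4 colonies, and went from 0.72 and 0.79 to -0.51 and -0.64 at passage 10, a change of -1.33 (SE 0.09). Both stood above the reference in day 7 colonies, at 0.71 and 0.56 on average. Z00060935-1 and Z00060948-1, which share no run of 18 bases, followed each other over all groups. The first went from 0.67 and 0.88 to -0.44 and -0.36 at passage 10, and the second from 0.82 and 1.08 to -0.34 and -0.23. Both were at their lowest in passage 10 among all 14 arrays, as were Z00004700-1 and Z00073937-1. Fallen probes had been chosen for lying below standard day 3, and the share of all tested probes lowest in passage 10 was not counted.

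Probe sequences were matched to RefSeq promoter windows of build GRCm38.p6, which run from 250 bases before to 50 bases after each gene's start. All 60 bases of 257 probes lay in a window of 1 locus, and 140 of these were tested. At passage 10, 6 passed (4.29%), none at 2-fold, all of them lower. Of these only 2, both at Rpl38, lay on the gene's strand and reached past its start site. Rpl38 encodes a protein of the large ribosomal subunit. They are shown as the 2 probes past the threshold that a gene could be given to, with the bases past the annotated start in capitals:
Z00075310-1: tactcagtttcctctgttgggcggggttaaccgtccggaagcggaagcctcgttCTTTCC
Z00032009-1: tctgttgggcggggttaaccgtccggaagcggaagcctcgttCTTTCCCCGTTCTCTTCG

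Z00075310-1 lies at chr11:114668526-114668585 and Z00032009-1 at chr11:114668538-114668597, both on the plus strand. Their first bases lie 54 and 42 bases before the annotated start, so 6 and 18 of their bases fall in the annotated transcript. Other copies of these sequences outside promoter windows were not looked for. Their changes were -0.34 (SE 0.06, adjusted p = 0.0121) and -0.25 (SE 0.06, adjusted p = 0.026). The other 4 probes lay wholly before a start site or on the opposite strand, so the gene whose window holds them need not be the one they read. Z00060294-1 (chr12:87795362-87795421) lay before Gm21936, outside any annotated gene, and was lower by 0.49 on the log2 scale. Z00070705-1 (chr14:52019729-52019788) lay opposite Zfp219 and within the gene bodies of Tmem253 and Zfp219, with a change of -0.44. Z00072951-1 (chr5:137612512-137612571) lay opposite Gm36266 and within Fbxo24, with -0.29, and Z00075190-1 (chrX:73922122-73922181) before Naa10 and within Renbp, with -0.25. Of 3 probes that share 25 bases with a miRNA hairpin, 0 passed. The polyadenylation signal AATAAA, searched on the probe's strand alone, stood in 7.90% of tested probes, 8.38% of the 823 higher and 10.7% of the 783 lower, and their median GC was 45%, 45% and 43.3%.

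On the 4 arrays, 56.1% to 58.6% of probes were well above background in Cy3, with a median sample signal of 2.00 to 2.11 times background. No Cy3 spot was saturated, and saturation of the reference spots in Cy5 is not given here. The number of arrays limits the precision.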

How the data were processed

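The 14 arrays are 2-colour Agilent arrays, and per the file headers their spots were quantified by Agilent Feature Extraction, version 9.5.1.1. The deposited scanner intensity values (mean signal and median background of each spot) are not normalized. The deposited processed intensities were background-subtracted and dye-normalized by that software, per the file headers. The value table that the authors deposited is on a log10 scale and covers 25030 probes. Centred by probe, it followed the deposited log10 ratio of Cy5 over Cy3 with its sign turned (r of 0.99927 to 0.99997 over 14654 probes), so its direction is sample over reference. Its column medians are 2.24 to 2.32, and the origin of its centring is unknown.

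Using R 4.3.3 and limma 3.58.1, with statmod 1.5.0 for the random block, signals were corrected with normexp (offset 50) and loess within arrays, control spots at weight 0. The 1417 control spots and 2 to 12 outlier spots on each of the 4 arrays were left out. Probes well above background in Cy3 on both arrays of standard day 3 or of passage 10 were tested (57.0%). The fit held 7 group means over all 14 arrays and 1 term for slide 3 against slide 2 as replicate block, with 6 residual degrees of freedom and 4.54 from the prior, so groups of 2 arrays share the spread. The array identifiers put same-numbered arrays of both groups on 1 slide, and those deviated together (r = 0.276), so the numbers pair the arrays. Tests were two-sided. The fit with the replicate block was tested on simulated data whose spread came from the same fit. The other steps were not simulated.

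Members, lists and sets were chosen with earlier results of these data known. The rule for named probes asked for genes, and where probes have no name for the 2 largest rises and falls among probes measured on all 4 arrays, past the threshold and not overlapping between groups. Other probes were chosen after their values were seen. Gene symbols come from RefSeq tables of build GRCm38.p6. Alternatives covered background, normalization, filter, block, position and single arrays.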

Additional observations from a re-analysis of the deposited data

How the results depend on the processing

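Of the 30 probes' log2 changes none reversed under the alternatives that measured them. Z00030719-1, Z00016634-1 and Z00023804-1 each failed the threshold under some. Without the replicate block 1381 probes passed, 1345 of them shared, and with slide as a random block 1349; the 30 were the same. Using only the 4 arrays 1949 passed. The numbers higher and lower at passage 10 were 16 and 22 with median centring, 379 and 400 with scaling between arrays, 466 and 498 with no filter on dim probes, and 239 and 418 with a position term added after seeing the data. With the Cy3 channel alone 1272 were higher and 33 were at least 2-fold lower. The numbers 2-fold higher and lower were 67 and 49 in the authors' value table and, from the software's processed intensities, 77 and 76. Leaving out arrays gave 76 to 679 higher and 90 to 704 lower.

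With Agilent's processed signals, RA 48 h against control day 3 gave 1530 probes at 2-fold. Against standard day 3, control day 3 gave 2760, RA 48 h 4497, LY294002 48 h 3040, day 4 colonies 3792 and day 7 colonies 4064. With Cy3 alone control day 3 gave 2667 and LY294002 48 h 2575, and with median centring LY294002 48 h gave 2429.

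Medians of probe sets at passage 10 moved by more than 0.016, the SD between slides pooled over 8 sets, as follows. The SD of single sets ran from 0.00017 for day 7 raised to 0.024 for LY294002-lowered probes, so some moves lie within a set's own spread. Ranges for left-out arrays span all those fits, some of which moved by less. RA-raised probes had -0.038 with no filter, 0.0075 with no 2-fold limit, and -0.075 to -0.031 when arrays were left out. RA-lowered probes had 0.058 with processed signals, 0.036 with Cy3 alone, 0.052 in the authors' value table, -0.018 with the position term, -0.0059 with no 2-fold limit, and 0.0018 to 0.034 when arrays were left out. Day 4 raised probes had -0.014 with median centring, 0.039 with Cy3 alone and -0.016 with the position term. Day 4 lowered probes had -0.014 with processed signals, -0.013 in the value table, -0.019 with no 2-fold limit, and -0.049 to -0.021 when arrays were left out. Day 7 raised probes had 0.0077 with processed signals, 0.014 with Cy3 alone, 0.012 in the value table, -0.030 with the position term, 0.030 with no 2-fold limit, and -0.018 to 0.012 when arrays were left out. Day 7 lowered probes had -0.019 with scaling, -0.067 with the position term, and -0.051 to -0.020 when arrays were left out. LY294002-raised probes had 0.10 with median centring, 0.11 with the position term and 0.060 with no 2-fold limit. LY294002-lowered probes had -0.073 with scaling, -0.15 with the position term, -0.051 with no 2-fold limit, and -0.12 to -0.085 when arrays were left out. The causes were not tested. Gene list alternatives were not run, since no list could be matched to probes.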
